A study of Mus musculus with 6 samples.

Results

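Class I phosphoinositide 3-kinase (PI3K) genes were examined in splenic monocytes of mice gavaged with water (Con) or vancomycin (Van), with 3 biological replicates per group and 1 library of messenger RNA from each. The 10 genes are Pik3r5 and 9 others of the same signalling step, taken by gene symbol from 46072 gene identifiers, and each symbol stood on a single identifier. Pik3r5 was chosen by its measured level, which was higher in Van, so that its own values are given as a description, without a test. The other 9 genes were taken for their function, with earlier results of these data known. All 10 passed edgeR's filter on low counts and were among the 16138 genes tested.

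The Con group received water, and the Van group received 2 mg of vancomycin per mouse per day in a pair of daily gavages, in both cases for 6 days. Both groups then rested without antibiotic, for 6 to 8 days by the labels and for the longer of these by the account of the sequenced mice. All mice were young adult female C57BL/6 mice without a genetic change. Monocytes were enriched from the spleen by magnetic negative selection, which leaves a share of other cells. They came from 3 mice per group and were not stimulated ex vivo. A further group of the study, which received a bacterial lipid after vancomycin, was not analysed here.

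Class I PI3K is a lipid kinase at the plasma membrane that turns the phosphoinositide PIP2 into PIP3, and PIP3 draws Akt and other proteins to the membrane. The class IB enzyme pairs the catalytic subunit p110γ with p101 or p84 and answers to G protein-coupled receptors, such as those for chemoattractants, and it is known mainly from leukocytes. The class IA enzymes pair p110α, p110β or p110δ with a regulatory subunit of the p85 kind and answer to receptors that signal through tyrosine kinases. BCAP is an adaptor that brings class IA PI3K to B cell and Toll-like receptors, and the phosphatase SHIP1 removes a phosphate from PIP3.

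Total estimated counts lay between 43383919 and 61834407 per library, and these are not numbers of sequenced reads. Levels are given as CPM (counts scaled to the size of each library with edgeR's TMM factors) for comparisons between libraries, and as FPKM (fragments scaled to transcript length and library size) for comparisons between genes. Among 16138 genes tested, edgeR called 322 (2.00%) at a threshold of 0.05 for the adjusted p, 1.08% higher and 0.917% lower in Van, and DESeq2 called 983 (8.41%, with 4.14% lower in Van) of the 11695 genes to which it gave an adjusted p. The values of the Con and Van libraries did not overlap for 22.5% of all genes. The 10 monocyte markers summed to 22343 to 23226 CPM in Con and 21432 to 22141 CPM in Van, with 3 higher and 7 lower in Van at a median log2 fold change of -0.15. EdgeR called 2 of these 7, Ccr2 and Fcgr1, and DESeq2 called 3 of the 10. Of 52 tested markers of 9 other cell types, edgeR called 3 erythroid genes higher and the dendritic cell gene Clec9a lower. The summed erythroid markers were at 42.0 to 77.8 CPM in Con and 134 to 292 CPM in Van. Those of dendritic cells were at 58.0 to 63.7 CPM in Con and 57.0 to 59.4 CPM in Van, with 5 of 6 lower, a median log2 fold change of -0.74 and Flt3 alone higher. Those of T cells were at 41.7 to 55.3 and 32.6 to 44.0 CPM, and those of B cells at 20.5 to 26.0 and 16.2 to 19.5 CPM. The neutrophil list was at 8.14 CPM or less in every library and the NK cell list at 1.98 CPM or less, with Ly6g, the defining neutrophil gene, at 0 throughout. All 6 tested neutrophil markers were lower in Van, at a median log2 fold change of -1.02, with none called by edgeR or DESeq2. Platelet and megakaryocyte markers were at 15.6 to 31.4 CPM in Con and 13.6 to 18.9 CPM in Van, plasma cell markers at 338 to 443 and 281 to 366 CPM, and red pulp macrophage markers at 2217 to 2712 and 2545 to 3392 CPM. Lower in Van were 7 of 7 B cell, 6 of 7 T cell, 5 of 5 plasma cell and 4 of 5 platelet markers. Higher were 7 of 7 erythroid and 5 of 6 red pulp macrophage markers. DESeq2 called 4 erythroid, 3 dendritic cell, and 1 each of the B cell, plasma cell and red pulp macrophage markers, against 8.41% of all genes. The part of these cells in the results below was not tested. In such bulk samples, fewer cells that use a gene and less RNA per cell cannot be told apart.

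Pik3r5, which encodes p101, lies on chromosome 11 of GRCm38 from 68432121 to 68497849 on the plus strand. Pik3r6, which encodes p84, follows it on the same strand from 68503019 to 68552698, with 5169 bases between them. Neither gene shared exon sequence with another gene in GENCODE M21. A promoter sequence was found for 9 of the 10 genes, all except Pik3r6, in RefSeq's annotation of GRCm38.p6. The 250 bases before the transcript start are shown for Pik3r5, for Pik3r1, the gene that edgeR called among the 9 others, and for Pik3cg, which encodes the catalytic partner of p101. Each is written 5′ to 3′ on the strand of its gene, and capitals mark the GC box GGGCGG and the ETS core GAGGAA on either strand. Further starts of Pik3r1 and Pik3cg in the annotation are not shown.
Pik3r5, chr11:68431875-68432124, plus strand: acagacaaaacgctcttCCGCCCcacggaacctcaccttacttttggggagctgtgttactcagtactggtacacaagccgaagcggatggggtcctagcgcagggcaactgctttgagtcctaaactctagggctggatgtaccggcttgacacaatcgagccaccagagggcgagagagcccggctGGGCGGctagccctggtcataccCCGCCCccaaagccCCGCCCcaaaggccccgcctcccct
Pik3r1, outermost start, chr13:101768218-101768467, minus strand: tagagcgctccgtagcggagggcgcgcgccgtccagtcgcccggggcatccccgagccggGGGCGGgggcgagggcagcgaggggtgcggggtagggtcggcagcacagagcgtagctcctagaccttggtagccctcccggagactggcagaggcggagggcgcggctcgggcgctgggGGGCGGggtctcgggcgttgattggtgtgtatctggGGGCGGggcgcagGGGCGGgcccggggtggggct
Pik3cg, outermost start, chr12:32208660-32208909, minus strand: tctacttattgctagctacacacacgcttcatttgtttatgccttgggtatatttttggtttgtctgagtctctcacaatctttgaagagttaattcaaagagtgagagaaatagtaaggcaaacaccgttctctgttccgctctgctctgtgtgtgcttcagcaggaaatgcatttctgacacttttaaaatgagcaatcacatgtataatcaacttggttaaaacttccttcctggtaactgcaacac
The windows of Pik3r5 and Pik3r1 held 4 GC boxes each and no ETS core. The Pik3cg window held neither, and its G and C bases made up 38.8% of it, against 61.6% for Pik3r5 and 76.4% for Pik3r1. A GC box was found in 32.7% of 32817 such windows over all genes and in 55.1% of those of genes tested here. Of the starts not shown, that of Pik3r1 held no GC box, that of Pik3cg held 2 ETS cores, and the windows of Pik3cb and of a start of Pik3cd held 3 GC boxes each. An ETS core was found in 23.3% of all windows. None of the 3 windows held the letters TTGCNNAA (C/EBP), TGANTCA (AP-1) or AGAACA (the core of a glucocorticoid receptor site), which occurred in 9.57%, 6.75% and 16.1% of all windows, respectively. No motif searched contains another. These matches describe the letters of each window and not binding.

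The level of Pik3r5 was 198, 207 and 192 CPM in Con replicates 1, 2 and 3 and 342, 321 and 334 CPM in Van replicates 1, 2 and 3. The groups were far apart, since the lowest Van library was 1.55 times the highest Con library. The SD was 7.41 CPM around a mean of 199 CPM in Con and 10.8 CPM around 333 CPM in Van (n = 3 libraries each), a spread of 3.72% and 3.24% of the mean. The log2 fold change was 0.74 (standard error 0.055), a level 1.67 times that of Con. It lay between 0.72 and 0.77 when each library was left out in turn and between 0.73 and 0.74 under the other 11 settings, limma on FPKM values included. In FPKM, Pik3r5 was at 41.9, 43.2 and 40.8 in Con and 73.3, 68.5 and 72.9 in Van.
Apart from Pik3r6, 2 genes within 200 kb were measured well enough to be tested, Mfsd6l, at 1.94 ± 0.279 and 2.27 ± 0.189 CPM, and Myh10, at 8.98 ± 0.687 and 8.26 ± 1.78 CPM in Con and Van (SD, n = 3 libraries each). Neither passed the test, at an adjusted p of 0.646 and 0.797 from edgeR.

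**Figure D1:**
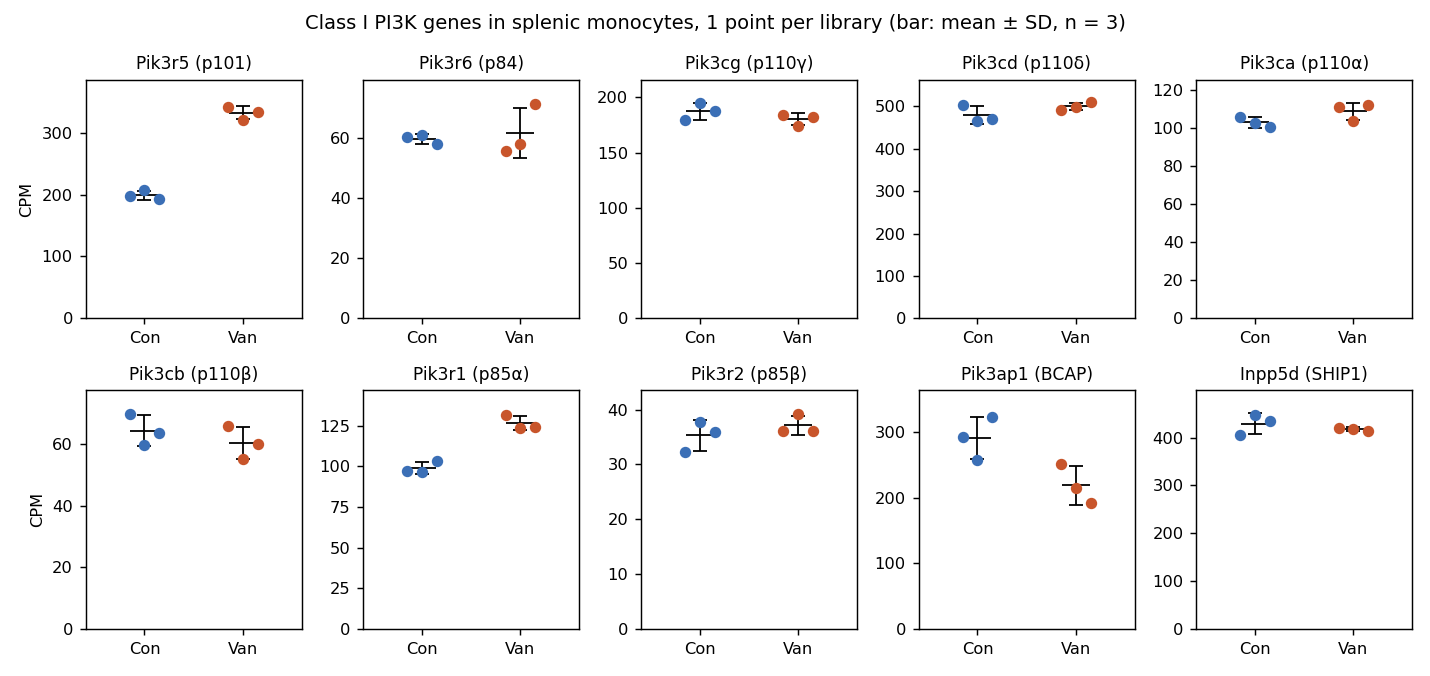
Level of each of the 10 genes in CPM on a linear axis from 0, with 1 point per library and the mean ± SD of 3 libraries per group (Con blue, Van orange). Pik3r5 was at 192 to 207 CPM in Con and 321 to 342 CPM in Van, Pik3r1 and Pik3ap1 also showed no overlap of the groups, and the other 7 genes overlapped.

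Pik3r6 encodes the alternative partner of p110γ. It was measured at 60.3, 61.1 and 58.0 CPM in Con and at 55.8, 57.9 and 71.3 CPM in Van. Van replicates 1 and 2 lay just below the Con values and Van replicate 3 above them, so that the groups overlapped. The log2 fold change was 0.044 (95% interval -0.17 to 0.26, adjusted p = 0.878 from edgeR), and it was -0.074 without Van replicate 3. In level, the interval runs from 0.888 to 1.20 times Con.
Pik3cg, the gene of p110γ, was at 179.7, 195 and 187 CPM in Con and 184, 174 and 182 CPM in Van. Its groups overlapped as well, with a log2 fold change of -0.057 (95% interval -0.18 to 0.071, adjusted p = 0.693 from edgeR).
Of the 3 class IB genes, only Pik3r5, the gene chosen for its difference, had groups that did not overlap. Per transcript length, Pik3r5 was at 1.51, 1.45 and 1.37 times the FPKM of Pik3cg in the Con libraries and at 2.55, 2.45 and 2.60 times in the Van libraries. Pik3r6 was at 0.574 ± 0.0163 times the FPKM of Pik3cg in Con and 0.606 ± 0.0863 times in Van (SD, n = 3 libraries each, exact permutation p = 0.7). Pik3r5 made up 71.9%, 72.2% and 70.6% of the summed FPKM of Pik3r5 and Pik3r6 in Con and 83.1%, 80.1% and 79.0% in Van. The mean share was 71.6% ± 0.843 in Con and 80.7% ± 2.11 in Van (SD, n = 3 libraries each), and no test is given because Pik3r5 enters it. In CPM, which is not scaled to length, the difference in the mean share was 7.49 percentage points instead of 9.12.

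**Figure D2:**
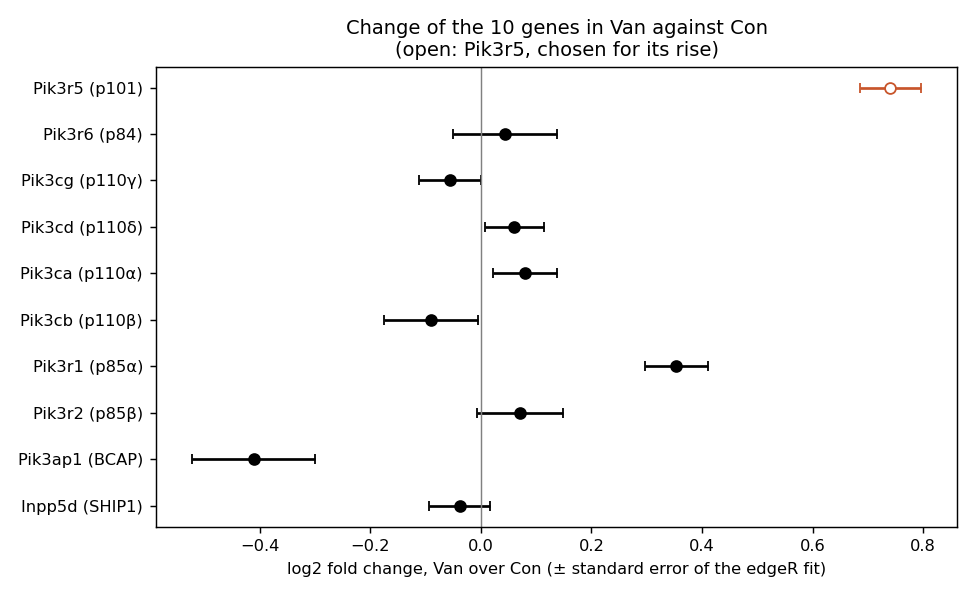
Log2 fold change of Van over Con for the 10 genes, with the standard error of the edgeR fit as bars and Pik3r5, chosen for its rise, as an open point. Pik3r5 lay at 0.74, Pik3r1 at 0.35 and Pik3ap1 at -0.41, and the other 7 genes lay between -0.090 and 0.079.

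Among the catalytic genes of class IA, Pik3cd, which encodes the p110δ of leukocytes, was at 503, 466 and 469.9 CPM in Con and 492, 499.7 and 509 CPM in Van. Con replicate 1 lay among the Van libraries. The log2 fold change was 0.061 (95% interval -0.061 to 0.18, adjusted p = 0.644 from edgeR).
Pik3ca, the gene of the widely used p110α, was at 106, 103 and 100.2 CPM in Con and 111, 104 and 112 CPM in Van, which differed by 0.079 on the log2 scale (95% interval -0.052 to 0.21, adjusted p = 0.558 from edgeR). Pik3cb, the gene of p110β, was at 69.6, 59.6 and 63.5 CPM in Con and 65.8, 55.2 and 59.9 CPM in Van, which differed by -0.090 on the log2 scale (95% interval -0.29 to 0.10, adjusted p = 0.672 from edgeR). Both genes had overlapping groups. Transcripts of Pik3cb share up to 522 bases at 95% identity or more with the noncoding gene Gm12992 and a similar stretch with the pseudogene Gm12978, so that its reads may be split.
The shares of the 4 catalytic genes in their sum overlapped between the groups. Pik3cd made up 64.2% ± 1.03 of their summed FPKM in Con and 65.5% ± 0.290 in Van, an exact two-sided permutation p of 0.2. Pik3cg made up 21.1% ± 1.40 and 20.1% ± 0.330 (exact permutation p = 0.4), Pik3ca 8.68% ± 0.164 and 8.77% ± 0.453 (exact permutation p = 0.8) and Pik3cb 6.02% ± 0.265 and 5.62% ± 0.422 (SD, n = 3 libraries each, exact permutation p = 0.3). With 3 libraries against 3, no such p can be below 0.1. Over the 7 shares and ratios without Pik3r5 that were tested in this way, Benjamini-Hochberg adjustment gave 0.35 or more.

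Of the 9 genes other than Pik3r5, edgeR called 1, Pik3r1, higher in Van, against 1.08% of all genes, and none lower, against 0.917%. DESeq2 called 2, Pik3r1 and, lower in Van, Pik3ap1, against 8.41% of all genes and 4.14% of them lower. The groups did not overlap for the same pair of genes, 2 of 9, against 22.5% of all genes. The median log2 fold change of the 9 genes was 0.044, and that of all genes tested was -0.0014.
Pik3r1 lies on chromosome 13 from 101680563 to 101768217 on the minus strand and encodes p85α and, from internal starts, shorter regulatory subunits, which the gene counts do not tell apart. It was at 97.3, 96.5 and 103 CPM in Con and 132, 124 and 124 CPM in Van. Every Van library was above every Con library, with means of 99.1 ± 3.70 CPM for Con and 127 ± 4.39 CPM for Van (SD, n = 3 libraries each). The log2 fold change of 0.35 (95% interval 0.22 to 0.49, adjusted p = 0.0283 from edgeR) corresponds to a level 1.28 times that of Con. The call was lost with any 1 library left out, at an adjusted p of 0.0681 to 0.117 from edgeR, while the log2 fold change stayed between 0.33 and 0.39.
Pik3r2 encodes p85β. It was at 32.3, 37.8 and 35.9 CPM in Con and 36.1, 39.2 and 36.0 CPM in Van, with overlapping groups and a log2 fold change of 0.071 (95% interval -0.11 to 0.25, adjusted p = 0.729 from edgeR). Its exons overlap 45 bases of a gene model on the opposite strand that the count table does not hold.
The share of Pik3r1 in the summed FPKM of Pik3r1 and Pik3r2 was 56.1%, 50.6% and 54.7% in Con and 60.3%, 58.3% and 59.9% in Van. The groups did not overlap, and the difference of 5.74 percentage points had an exact permutation p of 0.1, the smallest that the design allows, and 0.35 after adjustment. In CPM the difference was 3.59 percentage points. The summed FPKM of Pik3r1 and Pik3r2 was 0.209 ± 0.0200 times that of the 3 class IA catalytic genes in Con and 0.236 ± 0.0116 times in Van (SD, n = 3 libraries each, exact permutation p = 0.1).

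Pik3ap1, the gene of BCAP, did not pass edgeR's test, although every Van library was below every Con library. It was at 293, 258 and 324 CPM in Con and 251, 215 and 192 CPM in Van. The gap between the nearest libraries of the groups was small beside the spread within each, which was 292 ± 32.8 CPM in Con and 219 ± 29.9 CPM in Van (SD, n = 3 libraries each). The log2 fold change was -0.41 (standard error 0.11, 95% interval -0.66 to -0.16), with an adjusted p of 0.109 from edgeR and of 0.0068 from DESeq2. Under the other settings the adjusted p lay between 0.0699 without Van replicate 1 and 0.315 with limma on log2(FPKM + 0.1) values, and the log2 fold change between -0.52 and -0.32. B cells also express Pik3ap1, and the isolation removes cells with the B cell antigen CD45R. All 7 tested markers of B cells were lower in Van with none called by edgeR (1 at an unadjusted p under 0.05, against 16.5% of all genes, and 1 called by DESeq2, against 8.41%), and the list summed to no more than 26.0 CPM in any library, with Ebf1 below 1 CPM throughout.
Inpp5d, the gene of SHIP1, was at 405, 447 and 435 CPM in Con and 421, 419 and 414 CPM in Van. The Van values lay inside the range of Con. The log2 fold change was -0.038 (95% interval -0.16 to 0.088, adjusted p = 0.81 from edgeR), which places its level between 0.893 and 1.06 times that of Con.
For the 7 genes whose groups overlapped, Pik3r6, Pik3cg, Pik3cd, Pik3ca, Pik3cb, Pik3r2 and Inpp5d, the 95% intervals of the log2 fold change together spanned -0.29 to 0.26.

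**Figure D3:**
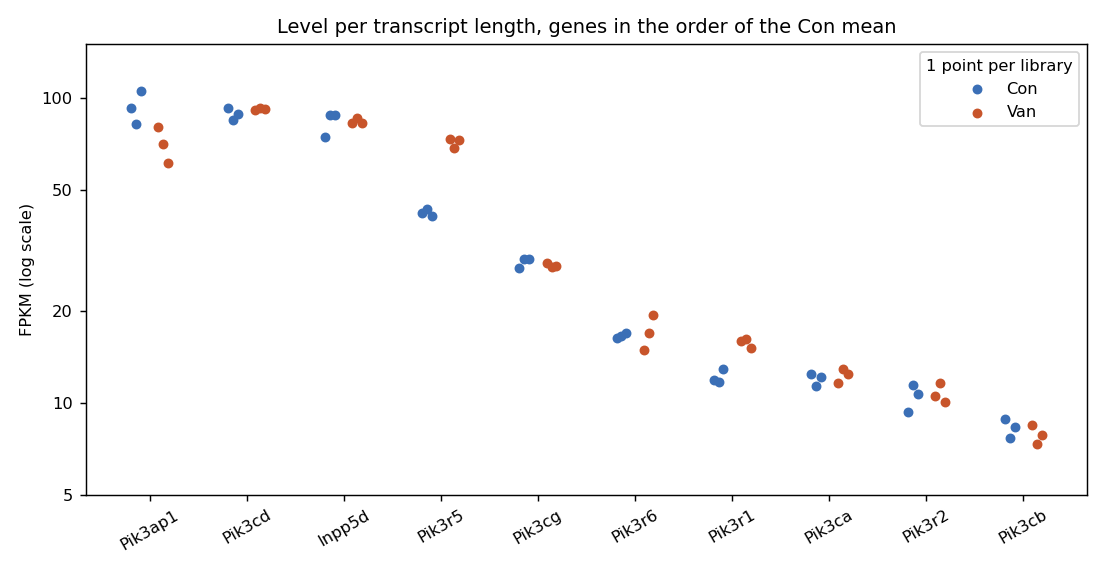
FPKM of the 10 genes on a log axis, 1 point per library (Con blue, Van orange), ordered by the Con mean. Pik3r5 moved from a place of its own at 40.8 to 43.2 FPKM in Con to 68.5 to 73.3 FPKM in Van, within the range of Pik3ap1 there.

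The order of the levels was read from FPKM. In Con, Pik3ap1 (93.3 ± 11.7 FPKM), Pik3cd (88.6 ± 3.97) and Inpp5d (83.3 ± 7.67) were highest, and the range of each overlapped that of the next. Pik3r5 followed at 42.0 ± 1.18 FPKM, Pik3cg at 29.0 ± 1.17 and Pik3r6 at 16.6 ± 0.308, each apart from its neighbours. Pik3r1 (12.2 ± 0.656 FPKM), Pik3ca (11.97 ± 0.577) and Pik3r2 (10.5 ± 1.08) overlapped one with the next, and Pik3cb was lowest at 8.31 ± 0.613 FPKM (SD, n = 3 libraries for each).
In Van, Pik3cd was highest at 92.0 ± 0.507 FPKM and Inpp5d next at 83.6 ± 1.74, without overlap. Pik3r5 at 71.5 ± 2.67 FPKM now stood beside Pik3ap1 at 70.6 ± 9.40, and these ranges overlapped. Pik3cg at 28.3 ± 0.435 FPKM stood apart, and Pik3r6 at 17.1 ± 2.25 overlapped Pik3r1 at 15.8 ± 0.602. Pik3ca, Pik3r2 and Pik3cb followed at 12.3 ± 0.650, 10.7 ± 0.784 and 7.90 ± 0.584 FPKM (SD, n = 3 libraries for each).

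The genes most like Pik3r5 were found by the root mean square difference of their log2 CPM, each centred on its mean over the 6 libraries, among 12588 genes with a mean of at least 1 CPM. The smallest difference, 0.065 log2 units, was that of Cacybp, which encodes a protein that binds a ubiquitin ligase. Cacybp was at 36.7, 35.5 and 35.8 CPM in Con and 56.2, 56.9 and 60.4 CPM in Van. Next was Dnaja1, which encodes a cochaperone of HSP70, at 0.079 log2 units, with 150.5, 143 and 152 CPM in Con and 229.8, 239 and 243 CPM in Van. The junctional adhesion molecule gene F11r followed at 0.081, the centrosome gene Wdr62 at 0.084 and the F-box gene Fbxl19 at 0.088 log2 units, each between 10.2 and 13.2 CPM in Con and 17.0 and 20.6 CPM in Van. The differences of these genes between the groups, from 0.65 to 0.69 on the log2 scale, follow from their choice by likeness to Pik3r5. Pik3r1 was the nearest of the other 9 PI3K genes, at 0.20 log2 units and rank 230, and Pik3ap1 the farthest, at 0.60 and rank 11561.

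**Figure D4:**
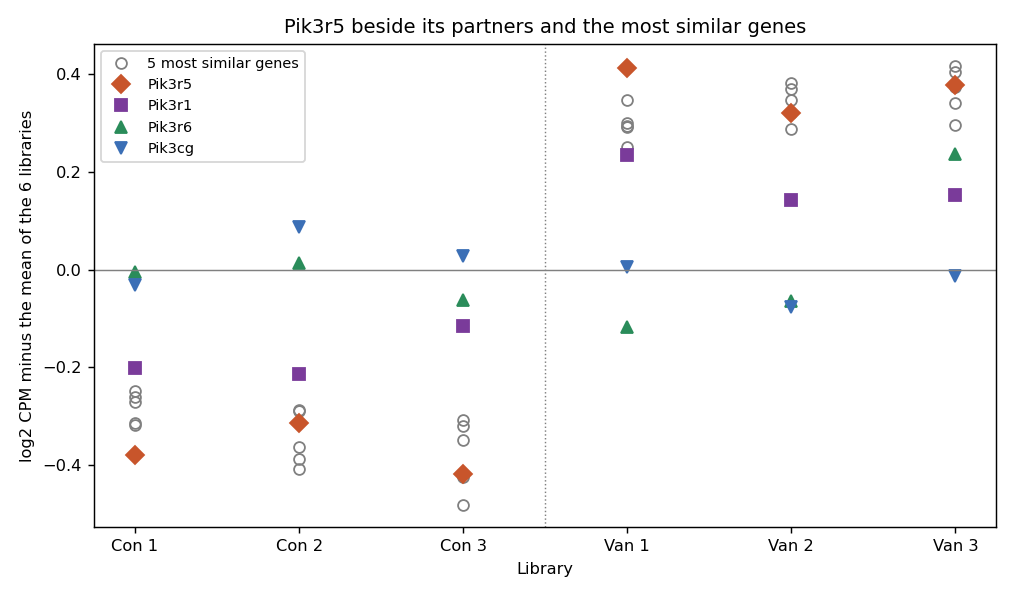
Log2 CPM of Pik3r5, Pik3r1, Pik3r6, Pik3cg and the 5 genes most similar to Pik3r5 (open circles) in each of the 6 libraries, minus the mean of each gene over the libraries. By their selection, Pik3r5 and the similar genes lay below 0 in all 3 Con libraries and above 0 in all 3 Van libraries. Pik3r1 did so with smaller values, and Pik3r6 and Pik3cg stayed near 0 except Pik3r6 in Van replicate 3.

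Other genes of the pathway were described by 8 lists written for this purpose, which together held 158 genes, of which 154 were tested. EdgeR called 5 of them (3.25%, against 2.00% of all genes), Cyth1, C5ar1 and Syk higher and Ccr2 and Dock2 lower in Van, and DESeq2 called 23, against 8.41% of all genes. The median log2 fold change of the 154 genes was 0.013, against -0.0014 for all genes, with 85 higher and 69 lower in Van. Of the 154 genes, 45 had an unadjusted p under 0.05 from edgeR, against 16.5% of all genes. The groups did not overlap for 53 of them, against 22.5%. Both counts make up a larger share than among all genes.
Upstream of p110γ, 17 receptors for chemoattractants, lipids and nucleotides or adenosine, most of them Gi-coupled, whose median log2 fold change was -0.17, were tested, with 5 higher and 12 lower in Van. EdgeR called 2, against 2.00% of all genes, DESeq2 5, against 8.41%, and 6 had an unadjusted p under 0.05, against 16.5%. This median was between -0.21 and -0.059 with 1 library left out and nearest to 0, at -0.048, with limma on unfiltered log2(FPKM + 1) values. C5ar1, the receptor for the complement fragment C5a, was at 40.4, 46.4 and 39.9 CPM in Con and 76.9, 63.0 and 57.7 CPM in Van. It rose by 0.64 on the log2 scale (SE 0.11, edgeR adjusted p = 0.0319). Ccr2, the receptor for CCL2 that marks classical monocytes, was at 757, 757 and 679.6 CPM in Con and 316, 444 and 473 CPM in Van and fell (-0.83 on the log2 scale, SE 0.14, edgeR adjusted p = 0.0283). The formyl peptide receptor genes Fpr1 and Fpr2, named after their values were seen, had log2 fold changes of 0.54 and 0.52 and an edgeR adjusted p of 0.050, just over the threshold, and 0.0767. P2ry12, the gene of an ADP receptor, named likewise, had a log2 fold change of -0.48 and an edgeR adjusted p of 0.072. DESeq2 called each of the 3. The groups did not overlap for 6 of the 17 receptors, these 3 among them, against 22.5% of all genes. Cxcr4, the most abundant receptor of the list, averaged 856 ± 100.7 CPM in the Con and 837 ± 166 CPM in the Van libraries (adjusted p = 0.942 from edgeR).
Of 28 tested G protein subunits, Ras proteins and Ras regulators, edgeR called none (9 at an unadjusted p under 0.05, against 16.5% of all genes, and 2 called by DESeq2, against 8.41%), and their median log2 fold change was 0.022. Gnai2, the main Gi subunit of leukocytes, averaged 1018 ± 10.9 CPM in the Con and 1051 ± 36.9 CPM in the Van libraries, and Rasa3, a Ras inhibitor, averaged 524 ± 39.4 and 573 ± 22.4 CPM (SD, n = 3 libraries each).
Of 20 tested adaptors, receptors and kinases around class IA PI3K, edgeR called 1, against 2.00% of all genes, and DESeq2 2, against 8.41%, with 3 at an unadjusted p under 0.05, against 16.5%. Their median was 0.057, and 0.0036 without Van replicate 1. Syk, the kinase that couples Fc and lectin receptors to PI3K, was at 670.2, 735 and 693 CPM in Con and 969, 908 and 862 CPM in Van, without overlap, and rose by 0.38 on the log2 scale (SE 0.063, edgeR adjusted p = 0.0283). Csf1r, the receptor for the monocyte growth factor CSF1, was at 3168 ± 159 and 3358 ± 295 CPM, and the Src family kinase gene Lyn at 882 ± 16.7 and 929 ± 37.4 CPM (SD, n = 3 libraries each, adjusted p = 0.641 and 0.535 from edgeR).

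Downstream, 44 genes of PIP3-binding proteins, Akt and mTOR were tested, of which edgeR called 1 higher and 1 lower, against 2.00% of all genes, at a median log2 fold change of 0.023. At an unadjusted p under 0.05 there were 14, against 16.5%, and DESeq2 called 8, against 8.41%. Cyth1, which encodes the PIP3-binding exchange factor cytohesin-1, was at 128, 124 and 130.2 CPM in Con and 199.6, 185 and 187 CPM in Van. It rose by 0.58 on the log2 scale (SE 0.056, edgeR adjusted p = 0.0044) and was the only one of the 5 pathway genes called with each library left out in turn. With limma, Cyth1 was called only without a filter on low values. Dock2, which encodes a PIP3-binding activator of Rac, was at 744, 688 and 743 CPM in Con and 619.7, 581 and 593 CPM in Van and fell (-0.28 on the log2 scale, SE 0.056, edgeR adjusted p = 0.047). Prex1, a Rac activator that answers to PIP3 and G protein subunits, was at 567 ± 14.8 and 620.4 ± 14.2 CPM (SD, n = 3 libraries each, adjusted p = 0.251 from edgeR).
Of 19 other lipid and Akt phosphatases, edgeR called none, with a median of -0.011, 9 higher and 10 lower in Van. Of the 19, 8 had an unadjusted p under 0.05, against 16.5% of all genes, and DESeq2 called 3, against 8.41%. The groups did not overlap for 10 of the 19, against 22.5% of all genes. Mtmr6, a myotubularin-related phosphatase, averaged 209 ± 10.7 and 198 ± 5.26 CPM (SD, n = 3 libraries each).
None of the 9 partners of SHIP1 was called by edgeR (2 at an unadjusted p under 0.05, against 16.5% of all genes, and 1 called by DESeq2, against 8.41%), with a median of 0.034. Among them, Cd300a had a log2 fold change of 0.034, and Ptpn6 was at 619 ± 22.1 and 559.6 ± 2.05 CPM in Con and Van (SD, n = 3 libraries each). None of the 7 tested genes of class II and III PI3K was called by edgeR or DESeq2 (0 at an unadjusted p under 0.05), against 2.00%, 8.41% and 16.5% of all genes, with a median of 0.037, and their most abundant members, Uvrag and Becn1, had log2 fold changes of 0.10 and 0.0051. None of 15 genes that FOXO factors induce when Akt is low was called by edgeR (3 at an unadjusted p under 0.05, against 16.5% of all genes, and 2 called by DESeq2, against 8.41%), with a median of -0.0012. Of these, Klf2 was at 504 ± 44.7 and 627 ± 52.1 CPM (adjusted p = 0.105 from edgeR) in Con and Van (SD, n = 3 libraries each). Klf2 was called by DESeq2.
The calls of Ccr2, C5ar1, Syk and Dock2 depended on single libraries. None of these genes was called with limma or with the replicate block, where the pathway genes called were Cyth1 and Fpr2. Ccr2 was still called when Van replicate 1 or Van replicate 3 was left out, C5ar1 and Syk only when it was Van replicate 3, and Dock2 in none of the 6 fits that left out a library.

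**Figure D5:**
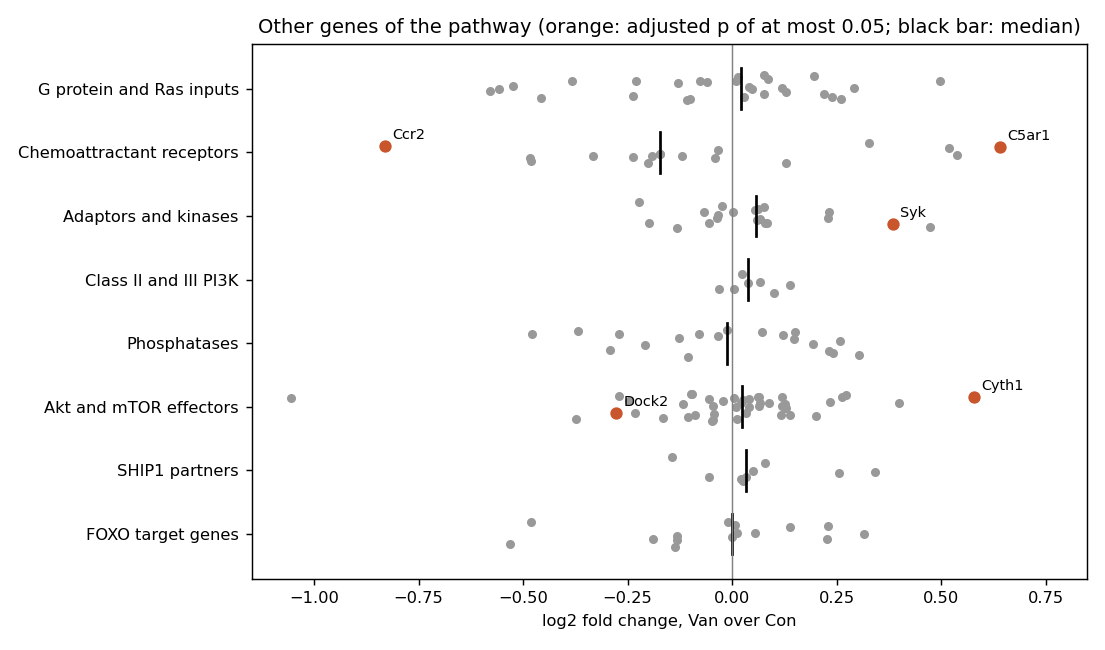
Log2 fold change of Van over Con for the tested genes of the 8 pathway lists, 1 point per gene, with the median of each list as a black bar and the genes called by edgeR at a threshold of 0.05 for the adjusted p in orange. Medians lay between -0.17 for the chemoattractant receptors and 0.057 for the adaptors and kinases, and 5 of 154 genes were called.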

How the data were processed

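The samples were splenic monocytes of 3 Con and 3 Van replicates. Per the labels and methods, the authors made stranded mRNA libraries, aligned them with HISAT2 2.2.1 to GRCm38 and estimated FPKM with StringTie 2.1.3 and Ballgown. The authors derived the estimated counts from these with tximport, and they were deposited without scaling to library size. The annotation release and strand settings are not given in the sources used here. The data statement of the study names another deposit, so that the libraries were matched to its Con and Van groups by treatment, and age, cell isolation and the lack of stimulation are taken from its methods.

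The estimated counts were rounded and tested in R 4.3.3 with edgeR 4.0.16 (TMM, filter at a minimum count of 10, quasi-likelihood test, group as the only term), with Benjamini-Hochberg adjustment over 16138 genes and a threshold of 0.05. Intervals are 95% intervals from the edgeR standard error. Alternatives were DESeq2 1.42.0, RLE or no scaling, other filters, a replicate block, a fragment scale (counts lowered as if tximport had assumed its default read length), 1 identifier per symbol, limma 3.58.1 on quantile-normalized FPKM (log2 with a pseudocount of 1 or of 0.1), and each library left out. The tests were tested on simulated data. Near-identical copies were sought with blastn 2.17.0, at 200 bases or more. Promoter windows on mouse chromosome 18 were left out of the motif shares.

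The members and lists were chosen with earlier results of these data known. Named genes are the 10 members, called genes and the 2 most abundant genes of each pathway list, 5 genes most like Pik3r5, and neighbours. Fpr1, Fpr2, P2ry12 and the single cell type markers given in the text were named after their values were seen. A few genes that this rule names are not reported here.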

Additional observations from a re-analysis of the deposited data

How the results depend on the processing

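Pik3r5 kept its direction and size under all 17 alternatives. These used the same libraries in which Pik3r5 was chosen for its rise, so they describe the processing and do not test the rise. The 9 other members kept their direction in every alternative except Pik3r6, which ranged from -0.074 without Van replicate 3 to 0.11 with one library left out. Pik3r1 was called under 7 of the 17 alternatives and was not called with each library left out, with limma or with the replicate block (adjusted p = 0.0789). The number of all genes called, of called members other than Pik3r5 and of called pathway genes was 322, 1 and 5. It was 983, 2 and 23 with DESeq2, 110, 0 and 2 with the replicate block, 13, 0 and 0 with limma on log2(FPKM + 1), 5, 0 and 0 with limma on log2(FPKM + 0.1), and 24, 0 and 1 with limma without a filter on low values. With one library left out it was 21 to 136, 0 and 1 to 5, lowest without Van replicate 2 and, at 22 genes, without Con replicate 3, and Pik3r1 was lost in each of these 6 fits. The share of called genes that were higher in Van was 54%, and 84.6% with limma on log2(FPKM + 1), 90.9% without Con replicate 3 and 85.7% without Van replicate 2. The labels do not say whether the replicate numbers pair the libraries. The deviations of same-numbered libraries correlated at 0.025, -0.0019 and -0.073, and not every library correlated best with its own number. Such correlations, from 3 libraries per group, cannot decide whether same-numbered libraries shared a processing step, which was not tested. From CPM instead of FPKM, the difference in the share of Pik3r5 was 7.49, that of Pik3r1 3.59 and that of Pik3ca 0.460 percentage points, against 9.12, 5.74 and 0.0919. The cause of these differences was not tested. With 3 libraries per group, the 95% interval reached from -0.29 to 0.10 for Pik3cb and from -0.17 to 0.26 for Pik3r6. The smallest difference that could be detected was not determined. With one library left out, the list medians ranged from 0.010 to 0.051 for G proteins and Ras (highest without Con replicate 1), 0.0036 to 0.069 for adaptors and 0.0035 to 0.040 for Akt and mTOR (both lowest without Van replicate 1), 0.012 to 0.096 for class II and III PI3K (highest without Van replicate 3), -0.042 to 0.054 for phosphatases and 0.017 to 0.079 for SHIP1 partners (both highest without Con replicate 3), and -0.067 to 0.038 for FOXO targets (lowest without Con replicate 2, highest without Con replicate 1).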
